A study of Arabidopsis thaliana with 44 samples.

Results

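Dark-grown whole seedlings of the double mutant ire1a-4 ire1b-2 were compared with wild-type seedlings after growth in orbit. Of the 44 labelled samples of the series, 8 form this comparison: the 4 flight libraries labelled ire1a-4 ire1b-2 and the 4 flight libraries labelled WT. Both genotypes are in the Col-0 ecotype of Arabidopsis thaliana, and every library was made from seedlings kept in the dark for 14 days on medium with 0.5% sucrose and preserved in a fixative. The series also holds ground libraries of both genotypes and flight and ground libraries of bzip28-2, bzip60-2 and bzip28-2 bzip60-1, with 4 libraries in each of the 10 groups that have a column in the expression table. The mutant was represented by a single combination of alleles and by a single flight run, so no spread between runs was measured. The spread behind each p-value below was estimated over the libraries of all 10 groups, flight and ground. Groups in which a gene lies near 0 FPKM vary little on this scale. For such a gene the shared spread can be smaller than that among the libraries that express it. For other genes the shared spread can be larger than that among the flight libraries. Expression was deposited as FPKM, fragments normalised for transcript length and library size, and each gene was tested on log2(FPKM + 1), a scale that understates the change of low genes.

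IRE1 is a kinase and ribonuclease in the membrane of the endoplasmic reticulum (ER) that senses unfolded proteins. Arabidopsis carries the homologues IRE1A and IRE1B, and their main known substrate is the transcript of the transcription factor bZIP60. The cut removes a short stretch between a pair of stem-loops, and the rejoined transcript encodes a form of bZIP60 that can enter the nucleus and raise genes of protein folding, disulfide bond formation, ER export and ER-associated degradation. A parallel branch runs through bZIP28, which is released from the membrane by the proteases S1P and S2P. The site cut by IRE1 is shown because the mutant carries mutant alleles of both IRE1A and IRE1B, while the bZIP60 transcript itself can still be measured. It lies in the second coding exon of bZIP60 (AT1G42990) on the minus strand at chr1:16136260-16136318 in the RefSeq assembly TAIR10.1, and the capitals mark the 2 copies of the cleavage motif CNGNNG, which start 23 bases apart.
bZIP60: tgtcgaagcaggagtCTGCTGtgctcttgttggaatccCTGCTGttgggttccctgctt
The 888-base coding sequence held 19 matches to this motif, and 1 pair had a spacing of 23 bases. FPKM covers the whole gene, so spliced and unspliced bZIP60 could not be separated here.

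The libraries of the comparison were not on a common scale as deposited. AT2G01021, an open reading frame within the ribosomal RNA genes, took 16 to 37.1% of all FPKM in ire1a-4 ire1b-2 flight libraries and 2.97 to 47.2% in WT flight libraries. The log2 factors that put the libraries on a common scale were 0.315 to 0.464 in ire1a-4 ire1b-2 and 0.199 to 0.52 in WT. Each value was also computed after median-ratio rescaling of the libraries over 14104 genes above 1 FPKM in all of them. The median tested gene differed by -0.013 between ire1a-4 ire1b-2 and WT on the log2 scale as deposited and by 0.005 after rescaling. The median standard error of a difference was 0.192 as deposited and 0.134 after rescaling. Below, a difference is ire1a-4 ire1b-2 minus WT in flight on the log2(FPKM + 1) scale with its SE, given as deposited and then rescaled, and p is limma's p-value adjusted by the Benjamini-Hochberg method over 19186 tested genes. FPKM values are as deposited and are listed in the order of the library numbers.

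The transcript of IRE1A was nearly lost in the mutant and that of IRE1B was lower but present. IRE1A (AT2G17520, chr2:7617151-7621129, plus strand) had 1.43, 1.50, 1.27 and 1.2 FPKM in ire1a-4 ire1b-2, against 38, 39.1, 34 and 34.3 FPKM in WT. All 4 mutant libraries lay far below every WT library, and the difference was -3.99 ± 0.17 (adjusted p = 4.1e-19) and -3.80 ± 0.07 rescaled (adjusted p = 1.23e-29). IRE1B (AT5G24360, chr5:8316388-8319981, plus strand) had 5.57, 5.44, 4.28 and 5.70 FPKM in the mutant, against 8.96, 10.6, 9.03 and 8.98 FPKM in WT. These groups did not overlap either, but the difference of -0.74 ± 0.17 missed the threshold as deposited (adjusted p = 0.0763) and passed it after rescaling (-0.69 ± 0.10, adjusted p = 1.28e-04). The deposited result for IRE1B depended on the libraries in the fit. With only the 20 flight libraries the same difference passed the threshold as deposited, and with only the groups compared it missed. A transcript level does not show whether a working protein is made. IRE1C, the third homologue, was listed at 0 to 0.0512 FPKM in the mutant and 0 to 0.0688 FPKM in WT and was too low to test.

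Few other genes separated the genotypes in flight. As deposited, 13 genes were higher (0.0678% of the tested genes) and 20 lower (0.104%) at p below 0.05, and after rescaling 16 were higher (0.0834%) and 29 lower (0.151%). On both scales 13 genes rose and 19 fell, 32 in all, and in every one of these the 4 mutant and 4 WT values did not overlap. Over all tested genes the values did not overlap for 0.969% (higher) and 1.15% (lower) as deposited, and for 2.26% and 2.38% rescaled. At an unadjusted p below 0.05 there were 302 genes as deposited (1.57% of the tested genes) and 727 rescaled (3.79%). Both shares lie below the share that chance alone would give at this threshold. In whole seedlings, fewer cells of a type and less RNA per cell cannot be told apart. When each of the 8 libraries was left out in turn, 24 of the 32 genes kept their call on both scales every time, and the other 8 are named with those values below. With a pseudocount of 0.1, BGLU33, ICS1, SMR7, c-NAD-MDH3, AT3G20450 and AT2G26630.1 lost their call on both scales, and 8 others as deposited. With only the 2 groups compared in the fit, AIG1, GSTF4, NS2, RTM1, RTM2, SMR7, AT1G29520, AT2G01580 and AT3G20450 lost it on both scales. In that fit as deposited, limma's adjusted p was 0.129 for AIG1 and 0.0206 for CYP79F1, both near 0 FPKM on the ground. The rescaled count of lower genes was 19 in place of 29 without ire1a-4 ire1b-2 library 4. With the replicate number as a block in a fit of the 2 groups, 8 of the 32 kept the deposited call and 7 the rescaled call.

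AT4G29200, which had the largest difference after IRE1A on both scales, and AT3G01345 were under 1 FPKM in every library of the mutant. AT4G29200, annotated as a beta-galactosidase related protein (chr4:14398054-14400198, minus strand), was listed at 0.0302, 0, 0.0576 and 0 FPKM in ire1a-4 ire1b-2 and at 6.46, 5.47, 7.60 and 6.70 FPKM in WT. The difference was -2.88 ± 0.11 (adjusted p = 1.12e-20) and -2.54 ± 0.11 rescaled (adjusted p = 1.17e-18). AT3G01345, an uncharacterized gene (chr3:129138-130749, plus strand), had 0.286, 0.330, 0.492 and 0.426 FPKM in the mutant, against 6.14, 6.5, 5.08 and 4.02 FPKM in WT. Every WT library was over 4 FPKM for both genes. The difference for AT3G01345 was -2.20 ± 0.20 (adjusted p = 9.5e-10) and -1.96 ± 0.19 rescaled (adjusted p = 1.28e-08).

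A pair of overlapping genes on chromosome 1 fell together. HEI10 (AT1G53490, chr1:19963267-19966952, plus strand), known for promoting meiotic crossovers, had 9.71, 4.84, 8.34 and 5.62 FPKM in the mutant, against 36.6, 37.3, 31.1 and 36 FPKM in WT. MRD1 (AT1G53480, chr1:19963047-19964712, minus strand) had 3.16, 0.997, 2.49 and 2.52 FPKM in the mutant, against 15, 15.2, 10.5 and 11.1 FPKM in WT. The highest mutant library stayed below the lowest WT library for both. The differences were -2.20 ± 0.20 (adjusted p = 9.5e-10) and -2.13 ± 0.16 rescaled (adjusted p = 4.68e-11) for HEI10 and -2.12 ± 0.18 (adjusted p = 2.32e-10) and -1.99 ± 0.16 rescaled (adjusted p = 2.11e-10) for MRD1. These genes overlap on opposite strands. The library kit keeps the strand, but the sources used here do not say that the strand was used in counting, so reads of one could be counted for the other.

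ARP9, SHL1, PARP2 and SMR7 were also among the genes that fell. ARP9, an actin-related protein, had 7.43, 6.45, 6.49 and 6.31 FPKM in the mutant, against 21.7, 20.7, 16.4 and 22.5 FPKM in WT (-1.47 ± 0.17, adjusted p = 1.12e-06, and -1.41 ± 0.11 rescaled, adjusted p = 1.3e-10). SHL1, a chromatin protein with a PHD finger and a BAH domain, had 29.2, 27.4, 25.7 and 26.6 FPKM in the mutant, against 61.8, 60.3, 52.5 and 58.9 FPKM in WT (-1.07 ± 0.17, adjusted p = 3.06e-04, and -1.04 ± 0.06 rescaled, adjusted p = 4.25e-14). The spread within each genotype was small for both genes next to the gap between them. PARP2, a poly(ADP-ribose) polymerase of the DNA damage response, had 2.47, 2.39, 2.1 and 2.19 FPKM in the mutant, against 5.91, 7.54, 4.11 and 6.66 FPKM in WT (-1.08 ± 0.17, adjusted p = 1.9e-04, and -0.99 ± 0.13 rescaled, adjusted p = 1.56e-05). SMR7, a cyclin-dependent kinase inhibitor induced by DNA damage, had 1.46, 5.03, 5.87 and 4.43 FPKM in the mutant, against 12.5, 20.9, 17.6 and 15.7 FPKM in WT (-1.85 ± 0.41, adjusted p = 0.0456, and -1.75 ± 0.39 rescaled, adjusted p = 0.0352). SMR7 was the least firmly called of these. Its call was lost as deposited when any of the libraries was left out except ire1a-4 ire1b-2 library 3, with differences from -2.01 to -1.52 over the 8 and adjusted p up to 0.481. After rescaling it was lost without ire1a-4 ire1b-2 library 1, 2 or 4 or WT library 2, 3 or 4, with adjusted p up to 0.38.

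ICS1 and a pair of AIG1 family genes fell in flight. ICS1, the isochorismate synthase that makes the precursor of salicylate, had 15.4, 11.1, 12.7 and 10.8 FPKM in the mutant, against 30.8, 49.2, 27.6 and 32.9 FPKM in WT (-1.40 ± 0.27, adjusted p = 0.0062, and -1.36 ± 0.26 rescaled, adjusted p = 0.00648). WT library 2 was the highest, and without it the difference was -1.23 (adjusted p = 0.087) and -1.22 rescaled (adjusted p = 0.0696). AIG1, first described as induced by a bacterial avirulence gene, had 4.86, 3.79, 5.95 and 2.27 FPKM in the mutant, against 11.2, 17.1, 9.01 and 12.3 FPKM in WT (-1.38 ± 0.19, adjusted p = 3.82e-05, and -1.31 ± 0.18 rescaled, adjusted p = 1.89e-05). AT1G33950 (chr1:12332834-12340409, minus strand), a member of the same family, had 1.51, 1.52, 1.33 and 1.07 FPKM in the mutant, against 5.05, 6.57, 6.03 and 6.65 FPKM in WT (-1.58 ± 0.15, adjusted p = 7.43e-09, and -1.45 ± 0.14 rescaled, adjusted p = 1.69e-08). No value of the mutant reached the lowest WT value for any of the 3 genes. Of the 16 genes on the salicylate and immunity list 12 were tested, and ICS1 alone fell. The median difference of those 12 was -0.05 and -0.03 rescaled, beside -0.01 and 0.01 for all tested genes, and EDS1 (0.01 and 0.03 rescaled), PAD4 (-0.08 and -0.06) and NPR1 (-0.02 and 0.00), which act in the same pathway, were not called. PR1, the usual marker of salicylate signalling, was listed at 0, 0, 0.0438 and 0 FPKM in the mutant and 0.0611, 0.153, 0.147 and 0.112 FPKM in WT, too low to test.

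The remaining genes that fell on both scales had differences between -1.75 and -0.74 as deposited. CYP79F1, which starts the synthesis of aliphatic glucosinolates from methionine, had 2.53, 2.49, 3.56 and 2.22 FPKM in the mutant, against 8.43, 6.91, 5.87 and 6.98 FPKM in WT (-1.12 ± 0.16, adjusted p = 6.79e-05). Its near-identical neighbour CYP79F2 may share reads with it. SADHU3-2, a locus of the Sadhu retroelements, had 13.1, 14.8, 10.4 and 11.8 FPKM in the mutant, against 29.2, 30, 31.5 and 24.9 FPKM in WT (-1.15 ± 0.19, adjusted p = 7.98e-04). The locus listed as AT2G26630.1, which the reference annotation does not name, had 1.27, 0.645, 1.34 and 0.325 FPKM in the mutant, against 4.55, 6.33, 4.07 and 6.19 FPKM in WT (-1.75 ± 0.24, adjusted p = 3.1e-05). All 3 genes kept the call after rescaling, with p of 1.56e-05 for CYP79F1, 9.91e-07 for SADHU3-2 and 0.00161 for AT2G26630.1.

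AT1G43910 and AT2G18193, both annotated as P-loop nucleoside triphosphate hydrolases, fell by less. AT1G43910 averaged 11.1 ± 1.64 FPKM in the mutant and 25.8 ± 5.18 FPKM in WT (SD, n = 4 each), with -1.13 ± 0.23 (adjusted p = 0.0113) and -1.09 ± 0.21 rescaled (adjusted p = 0.00682). AT2G18193 averaged 4.57 ± 0.433 FPKM in the mutant and 9.41 ± 1.48 FPKM in WT (SD, n = 4 each), with -0.90 ± 0.19 (adjusted p = 0.0299) and -0.84 ± 0.15 rescaled (adjusted p = 0.00292). AT1G43910 lost its call without ire1a-4 ire1b-2 library 4 or WT library 2 on both scales and without WT library 4 as deposited, with adjusted p up to 0.115. AT2G18193 lost it as deposited without any 1 of the mutant libraries or without WT library 2 or 4, with adjusted p up to 0.185. It lies 300 kb from IRE1A on chromosome 2, and HIS1-3, described below, lies 229 kb from it. AT5G60250, a RING finger gene, averaged 1.28 ± 0.237 FPKM in the mutant and 3.44 ± 0.46 FPKM in WT (SD, n = 4 each; -0.96 ± 0.15, adjusted p = 3.45e-04). AT5G18840, a transporter of the major facilitator superfamily, averaged 1.49 ± 0.236 FPKM in the mutant and 3.17 ± 0.502 FPKM in WT (SD, n = 4 each; -0.74 ± 0.14, adjusted p = 0.00489). The rescaled call of AT5G18840 was lost when any library except ire1a-4 ire1b-2 library 1 was left out, with adjusted p up to 0.155.

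Among the 13 genes that rose, AT2G34590 had the highest level and the largest difference. AT2G34590, annotated as a transketolase family protein (chr2:14568802-14571143, minus strand), had 77.1, 77.5, 66.2 and 76.0 FPKM in the mutant, against 16, 12, 8.87 and 14.5 FPKM in WT. The mutant libraries were close to each other and all far above WT, with a difference of 2.47 ± 0.22 (adjusted p = 7.85e-10) and 2.46 ± 0.13 rescaled (adjusted p = 6.67e-16). AT1G29520, which encodes an AWPM-19-like membrane protein, had 47.6, 39.1, 49.1 and 29.7 FPKM in the mutant, against 19.5, 12.3, 10.1 and 20.5 FPKM in WT (1.38 ± 0.25, adjusted p = 0.00214, and 1.38 ± 0.23 rescaled, adjusted p = 5.38e-04). GSTF4, a glutathione S-transferase, had 20.3, 17, 16.8 and 10.6 FPKM in the mutant, against 8.67, 4.24, 2.50 and 4.37 FPKM in WT (1.59 ± 0.27, adjusted p = 0.00116, and 1.56 ± 0.22 rescaled, adjusted p = 4.55e-05).

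AT2G27140, AT5G20970 and RTM2, which rose, are annotated as HSP20-like, while the list of cytosolic and organelle heat shock genes had no called member among 15 tested. AT2G27140 had 12.6, 12.4, 11.8 and 9.09 FPKM in the mutant, against 2.76, 2.97, 1.67 and 3.63 FPKM in WT (1.75 ± 0.20, adjusted p = 5.46e-07, and 1.68 ± 0.17 rescaled, adjusted p = 1.69e-08). AT5G20970 had 10.4, 11.5, 9.45 and 9.39 FPKM in the mutant, against 5.24, 3.76, 2.57 and 3.73 FPKM in WT (1.24 ± 0.19, adjusted p = 2.66e-04, and 1.2 ± 0.17 rescaled, adjusted p = 5.55e-05). RTM2, an HSP20-like protein that with RTM1 restricts the long-distance movement of a potyvirus, had 6.64, 4.56, 5.92 and 3.78 FPKM in the mutant, against 2.17, 1.79, 1.39 and 2.75 FPKM in WT (1.04 ± 0.18, adjusted p = 0.00162, and 0.98 ± 0.14 rescaled, adjusted p = 4.55e-05). The mutant and WT values did not overlap for any of the 3. RTM1, a jacalin-type lectin, had 18.3, 14.8, 16.5 and 10.3 FPKM in the mutant, against 10.2, 4.06, 4.92 and 7.61 FPKM in WT (1.09 ± 0.24, adjusted p = 0.0396, and 1.08 ± 0.22 rescaled, adjusted p = 0.014). The gap of RTM1 was narrow, with the lowest mutant library at 10.3 FPKM and the highest WT library at 10.2 FPKM. Its call was lost on both scales without ire1a-4 ire1b-2 library 1 or 3 or WT library 2 or 3, and as deposited also without ire1a-4 ire1b-2 library 2 or WT library 4, with adjusted p up to 0.407.

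The other genes that rose had low to moderate levels. AT4G09950, a P-loop nucleoside triphosphate hydrolase, had 9.58, 8.56, 8.81 and 6.12 FPKM in the mutant, against 1.77, 2.89, 1.31 and 1.60 FPKM in WT (1.69 ± 0.26, adjusted p = 1.99e-04). BGLU33, a beta-glucosidase, had 7.73, 11, 9.90 and 6.88 FPKM in the mutant, against 3.59, 3.90, 2.49 and 4.27 FPKM in WT (1.11 ± 0.17, adjusted p = 1.19e-04). AT3G20450, named for similarity to BAP31, an ER membrane protein in mammals, had 10.7, 8.78, 8.42 and 6.81 FPKM in the mutant, against 5.18, 1.42, 1.02 and 3.41 FPKM in WT (1.50 ± 0.30, adjusted p = 0.00938). The WT libraries of AT3G20450 were the most spread of these, and its call was lost on both scales without ire1a-4 ire1b-2 library 1 or WT library 2 or 3, with adjusted p up to 0.146. NS2, an asparaginyl-tRNA synthetase, averaged 10.1 ± 2.06 FPKM in the mutant and 4.31 ± 1.23 FPKM in WT (SD, n = 4 each; 1.08 ± 0.19, adjusted p = 0.00222). The malate dehydrogenase gene c-NAD-MDH3 averaged 3.96 ± 0.759 FPKM in the mutant and 1.25 ± 0.279 FPKM in WT (SD, n = 4 each; 1.14 ± 0.17, adjusted p = 1.9e-04). AT2G01580, an uncharacterized gene, averaged 2.49 ± 0.454 FPKM in the mutant and 0.943 ± 0.373 FPKM in WT (SD, n = 4 each; 0.85 ± 0.19, adjusted p = 0.0379). AT2G01580 lost its call on both scales without ire1a-4 ire1b-2 library 1, 2 or 3 or WT library 2, 3 or 4, with adjusted p up to 0.25.

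**Figure D1:**
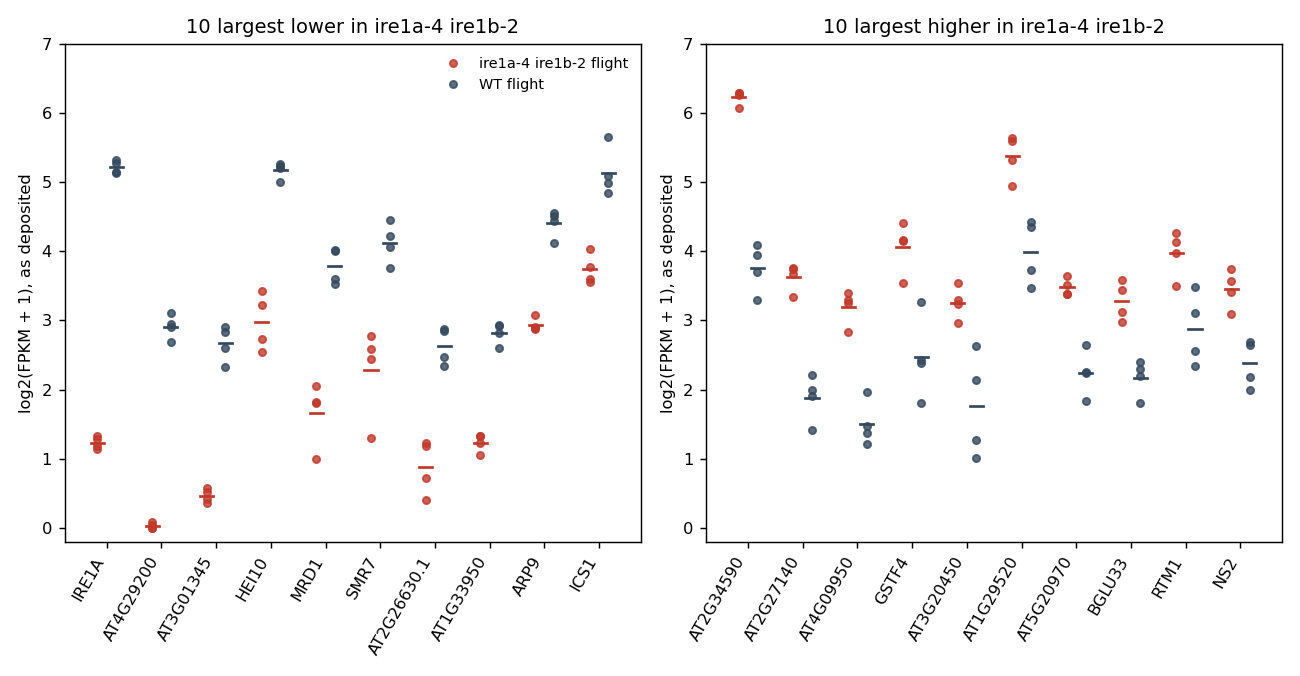
Levels of the 10 genes with the largest lower (left) and higher (right) difference in ire1a-4 ire1b-2 flight seedlings, as log2(FPKM + 1) of the deposited values, with 1 point per library (4 ire1a-4 ire1b-2, red, and 4 WT, dark) and a line at each mean. The groups do not overlap for any gene because this was part of the rule that chose them. AT4G29200 and AT3G01345 lie near 0 in the mutant.

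A further 14 genes were called on a single scale. CYCB1;1, a B-type cyclin, fell as deposited (-0.71 ± 0.16, adjusted p = 0.0436) but not after rescaling (-0.64 ± 0.17, adjusted p = 0.181). After rescaling alone, 3 genes rose. FLC, the repressor of flowering, had 42.4, 44.2, 29.8 and 37.6 FPKM in the mutant, against 26.3, 28.9, 15.8 and 19.4 FPKM in WT (0.77 ± 0.14 rescaled, adjusted p = 0.00201). HIS1-3, a linker histone, had 193, 193, 134 and 159 FPKM in the mutant, against 89.6, 119, 75.3 and 84.1 FPKM in WT (0.90 ± 0.16 rescaled, adjusted p = 0.00129). HAT9, a homeodomain-leucine zipper factor, was the third (0.60 ± 0.13 rescaled, adjusted p = 0.0228). Library 3 was the lowest of its group for both FLC and HIS1-3 in the mutant and in WT. The 10 genes that fell only after rescaling included IRE1B, the thymidine kinase TK1A (15.5 ± 1.84 FPKM in the mutant and 23.6 ± 1.72 FPKM in WT, SD, n = 4 each; -0.55 ± 0.09 rescaled, adjusted p = 6.24e-04) and the transcription factor NAC001 (-0.67 ± 0.12 rescaled, adjusted p = 0.00201). They also included AT1G21520, AT3G45730, CP1, AT3G58270, bHLH093 and ASP2, with rescaled differences from -0.90 to -0.46. FLC, HIS1-3, IRE1B, TK1A and NAC001 kept the rescaled call without any 1 library, and the other 9 lost theirs without at least 1. The losses of these 9 spread over 4 to 7 of the 8 libraries for each gene.

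Beyond the disrupted genes, no sensor or transducer of the unfolded protein response was called. bZIP60 had 33.4, 32.1, 26.1 and 26.6 FPKM in ire1a-4 ire1b-2, against 33.4, 40.2, 34.6 and 38.4 FPKM in WT. The highest mutant library equalled the lowest WT library to 3 digits, and the difference of -0.31 ± 0.18 (adjusted p = 1) and -0.28 ± 0.11 rescaled (adjusted p = 1) was not called. bZIP28, the factor of the parallel branch, had 25.4, 25, 23 and 22.5 FPKM in the mutant, against 23.1, 23.4, 20.7 and 24.4 FPKM in WT (0.06 ± 0.17, adjusted p = 1, and 0.08 ± 0.10 rescaled, adjusted p = 1). Of 15 sensors and transducers 13 were tested, and IRE1A fell on both scales and IRE1B after rescaling. NAC103, a factor downstream of bZIP60, had 1.69, 1.52, 1.62 and 1.1 FPKM in the mutant, against 2.68, 2.3, 1.8 and 2.69 FPKM in WT. Its groups did not overlap, but its difference was not called (-0.44 ± 0.17, adjusted p = 1, and -0.38 ± 0.14 rescaled, adjusted p = 0.96). BAG7, NAC062, BZIP17, AGB1, S1P, S2P, NAC089 and TIN1 had differences between -0.03 and 0.16, and none was called. BZIP49 was too low to test, at 0.131 to 0.260 FPKM in the mutant and 0.250 to 0.487 FPKM in WT.

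Genes of the folding machinery of the ER had small negative differences, with no member past the threshold. All 10 tested chaperones and co-chaperones had negative differences, with a median of -0.15 and -0.12 rescaled, as did all 7 genes of the calnexin and calreticulin cycle (-0.10 and -0.08) and all 11 disulfide isomerases and ER oxidases (-0.12 and -0.10). Beside this, 54.3% of all tested genes had a negative difference as deposited and 48.1% after rescaling. On the ground the medians were -0.26 and -0.2 rescaled for the chaperones and -0.23 and -0.16 for the isomerases and oxidases. For the calnexin and calreticulin cycle they were -0.1 and -0.03, beside -0.05 and 0.01 for all tested genes. The ER-luminal chaperone BIP1 had 74.3, 73.7, 64.8 and 74.2 FPKM in the mutant, against 80.4, 89.2, 74.7 and 83.5 FPKM in WT (-0.19 ± 0.17 and -0.17 ± 0.07 rescaled, both adjusted p = 1). BIP2, whose coding sequence is near-identical so that reads may be split between them, had 51.2, 46.5, 44.5 and 49.0 FPKM in the mutant, against 52.9, 53.7, 45.3 and 60.3 FPKM in WT (-0.14 ± 0.17 and -0.12 ± 0.08 rescaled, both adjusted p = 1). The libraries of the 2 genotypes interleave for BIP2 and nearly meet for BIP1. The disulfide isomerase PDIL2-1 came nearest to the threshold among these, with 107 ± 8.61 FPKM in the mutant and 127 ± 15 FPKM in WT (SD, n = 4 each; -0.24 ± 0.20, adjusted p = 1, and -0.22 ± 0.06 rescaled, adjusted p = 0.295). The 95% intervals of the rescaled differences over the 10 chaperones reached from -0.43 to 0.16, and over the isomerases and oxidases from -0.43 to 0.30.

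Other arms of the unfolded protein response gave no called gene. The 15 tested genes of ER-associated degradation had a median difference of -0.04 and -0.02 rescaled, with 10 of 15 negative as deposited and 9 after rescaling. Of 16 genes of ER translocation and N-glycosylation 13 were negative (median -0.11 and -0.09 rescaled). SEC61A1, a subunit of the translocation channel, was the lowest of them, with 23.2, 26.6, 24.3 and 21.9 FPKM in the mutant, against 37.6, 32.8, 26.4 and 32 FPKM in WT (-0.40 ± 0.18, adjusted p = 1, and -0.38 ± 0.10 rescaled, adjusted p = 0.232). The 6 tested genes of the COPII coat, which forms vesicles leaving the ER, had a median of -0.01 and 0.00 rescaled, and the 9 ATG8 genes of autophagy 0.04 and 0.06.

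**Figure D2:**
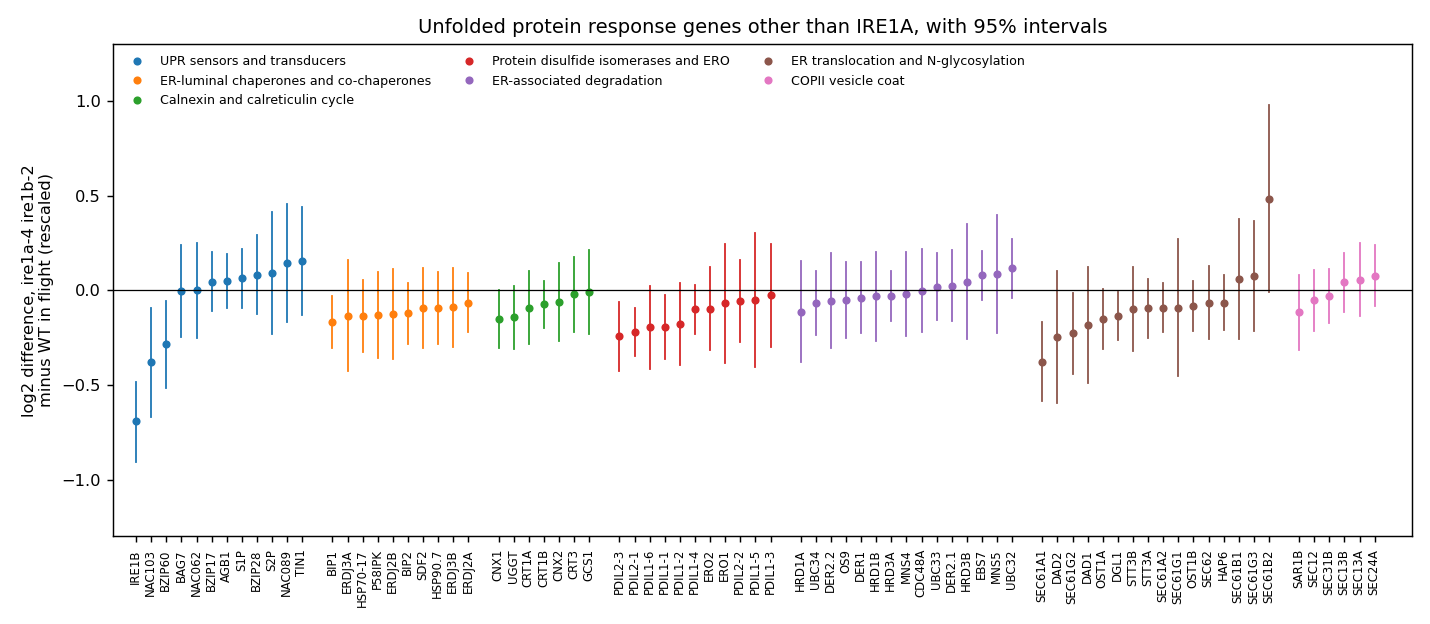
Difference between ire1a-4 ire1b-2 and WT in flight for the tested genes of the unfolded protein response other than IRE1A, on the log2(FPKM + 1) scale after rescaling, with 4 libraries a group. Points are limma estimates and bars 95% intervals, coloured by gene list; IRE1B at -0.69 stands below the chaperone and isomerase genes, whose estimates lie between -0.24 and -0.03.

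Some known targets of the IRE1 branch were at the floor of detection in flight. SEC31A, a COPII coat gene, was listed at 0.0239, 0, 0 and 0.0293 FPKM in ire1a-4 ire1b-2 and at 0.214, 0.172, 0.107 and 0.11 FPKM in WT. The groups did not overlap, at levels too low for the test. On the ground SEC31A was listed at 0 to 0.0275 FPKM in ire1a-4 ire1b-2 and 0.714 to 1.75 FPKM in WT. In the other flight groups it averaged 0.322 FPKM in bzip28-2 and 0.0255 FPKM in bzip28-2 bzip60-1, and was listed at 0 in all bzip60-2 libraries. SAR1A, a small GTPase of the same coat, had 0.123 to 0.365 FPKM in the mutant and 0.265 to 0.427 FPKM in WT, and BIP3, a chaperone known to be strongly induced under ER stress, 0.298 to 0.425 FPKM in the mutant and 0.171 to 0.435 FPKM in WT. Both overlapped between genotypes.

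The promoters of these genes are shown because they carry the elements that bZIP60 and bZIP28 are known to bind. Each is the 250 bases before the annotated start of the gene in TAIR10.1, read on the strand of the gene, and capitals mark matches on either strand to the ER stress response element (CCAAT, 10 bases of any kind, CACG) or to the core TGACGTG of the unfolded protein response element. PDIL1-1 lies at chr1:7645360-7645609 (plus strand), HSP90.7 at chr4:12556059-12556308 (minus strand) and SEC31A at chr1:6488983-6489232 (plus strand).
PDIL1-1: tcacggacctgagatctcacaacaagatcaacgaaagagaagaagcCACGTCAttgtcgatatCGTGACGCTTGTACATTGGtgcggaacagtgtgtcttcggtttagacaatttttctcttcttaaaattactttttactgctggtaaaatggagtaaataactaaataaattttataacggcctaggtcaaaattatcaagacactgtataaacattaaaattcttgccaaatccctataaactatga
HSP90.7: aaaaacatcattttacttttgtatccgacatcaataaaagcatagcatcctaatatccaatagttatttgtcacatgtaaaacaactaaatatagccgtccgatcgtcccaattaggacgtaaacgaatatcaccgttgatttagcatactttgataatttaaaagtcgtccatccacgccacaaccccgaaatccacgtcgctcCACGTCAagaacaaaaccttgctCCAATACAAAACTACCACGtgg
SEC31A: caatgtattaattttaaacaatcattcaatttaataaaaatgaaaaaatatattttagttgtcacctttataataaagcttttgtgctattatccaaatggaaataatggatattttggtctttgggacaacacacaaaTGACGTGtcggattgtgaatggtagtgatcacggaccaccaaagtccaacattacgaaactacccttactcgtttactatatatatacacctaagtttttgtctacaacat
PDIL1-1, a disulfide isomerase, and HSP90.7, the ER form of HSP90, hold both elements, and SEC31A holds the core alone. PDIL1-1 had 74.5, 78.3, 60.6 and 72.3 FPKM in the mutant, against 85.6, 89.2, 78.6 and 77.6 FPKM in WT (-0.21 ± 0.21 and -0.19 ± 0.08 rescaled, both adjusted p = 1). HSP90.7 had 88.9, 100, 74.7 and 95.7 FPKM in the mutant, against 96.2, 110, 86.3 and 96.4 FPKM in WT (-0.12 ± 0.17 and -0.10 ± 0.09 rescaled, both adjusted p = 1). The genotypes overlapped for both. The first element was found in 168 of 18887 promoters of tested genes (0.89%) and in 4 of 11 promoters of the chaperone list, and the second in 598 of 18887 (3.17%) and in 2 of those 11. Among the 13 genes that rose, no promoter held either element in this window. Among the 18 genes that fell with a promoter in the annotation none held the first, and AT2G18193 and SHL1 held the second. A match is a sequence description and does not show that a factor binds.

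The same genes were then read in the flight seedlings of the other mutants, whose comparisons with WT share the 4 WT libraries. AT4G29200 averaged 0.036 FPKM in bzip28-2, 0.0353 FPKM in bzip60-2 and 0.046 FPKM in bzip28-2 bzip60-1, all close to the values of ire1a-4 ire1b-2 and far under WT at 5.47 to 7.60 FPKM. AT2G34590 averaged 67.0 FPKM in bzip28-2, 78.8 FPKM in bzip60-2 and 76.8 FPKM in bzip28-2 bzip60-1, beside 74.2 FPKM in ire1a-4 ire1b-2 and 12.8 FPKM in WT. For these genes WT was the group that stood apart from all 4 mutants. ICS1 showed the same order, with averages of 12.5 FPKM in ire1a-4 ire1b-2, 15.4 FPKM in bzip28-2, 14.5 FPKM in bzip60-2, 13.4 FPKM in bzip28-2 bzip60-1 and 35.1 FPKM in WT, as did CYP79F1, with 2.70, 2.50, 2.47, 2.81 and 7.05 FPKM in the same order of groups. HEI10 was lower still in the other mutants, at 0.808 FPKM in bzip28-2, 1.16 FPKM in bzip60-2 and 1.27 FPKM in bzip28-2 bzip60-1, beside 7.13 FPKM in ire1a-4 ire1b-2 and 35.2 FPKM in WT.

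Other genes differed in ire1a-4 ire1b-2 from every other flight group. SHL1 averaged 27.2 FPKM in ire1a-4 ire1b-2, 52.4 FPKM in bzip28-2, 55.1 FPKM in bzip60-2, 53.9 FPKM in bzip28-2 bzip60-1 and 58.4 FPKM in WT. AT5G20970 averaged 10.2 FPKM in ire1a-4 ire1b-2 and 4.55, 4.32, 4.52 and 3.83 FPKM in the other groups in that order. Each library was placed on the side of ire1a-4 ire1b-2 or of WT by the midpoint of their mean log2 levels as deposited. No library of the other mutants was on the side of ire1a-4 ire1b-2 for 4 of the 32 called genes: IRE1A, SHL1, AT5G20970 and c-NAD-MDH3. For 14 of the 32, 13 lower and 1 higher, all 12 libraries were on that side, and the other 14 were mixed. This tally was not made over all tested genes.

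**Figure D3:**
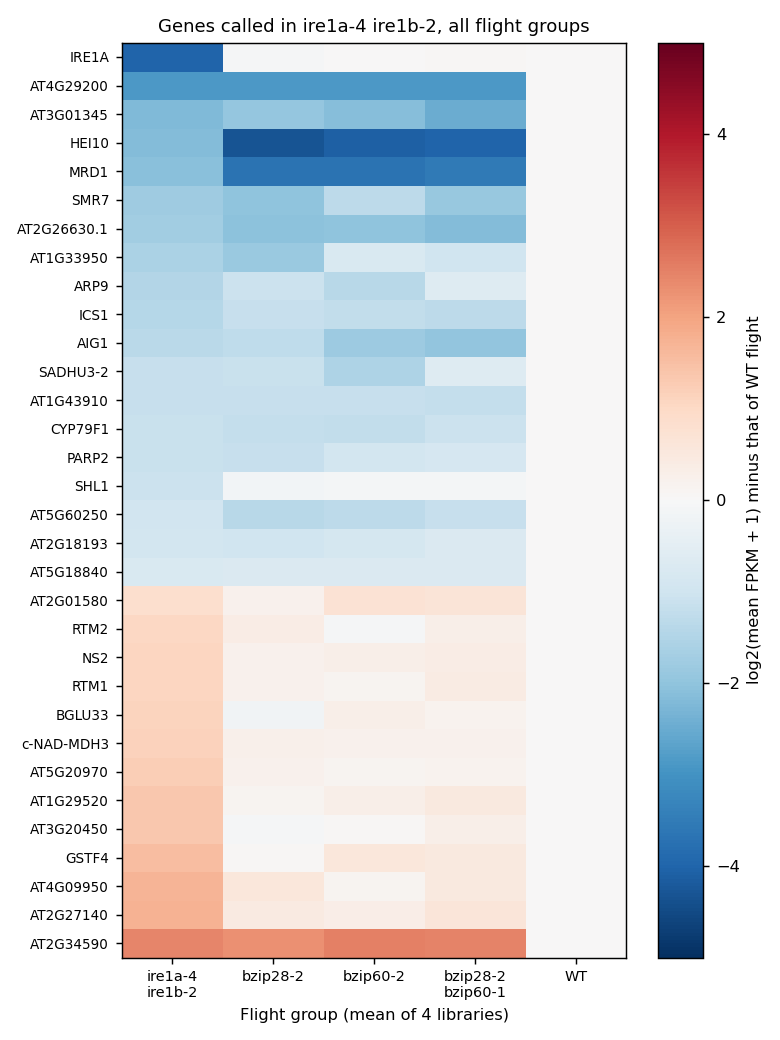
Mean level of each gene called on both scales in the 5 flight groups (4 libraries each), as log2(mean FPKM + 1) minus that of WT, ordered by the difference between ire1a-4 ire1b-2 and WT. Blue is lower and red higher than WT. AT4G29200 and AT2G34590 have nearly the same colour in all mutants. In ire1a-4 ire1b-2 alone, IRE1A is dark blue and SHL1 light blue.

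Set directly against bzip60-2, the mutant of the factor that IRE1 activates, ire1a-4 ire1b-2 differed in 16 genes as deposited (0.0834% of the tested genes, with 12 or 0.0625% higher and 4 or 0.0208% lower) and in 19 after rescaling (0.099%, with 14 or 0.073% higher and 5 or 0.0261% lower). This comparison shares the ire1a-4 ire1b-2 libraries with the one against WT. bZIP60 itself had 26.1 to 33.4 FPKM in ire1a-4 ire1b-2 and averaged 15.4 FPKM in bzip60-2 (0.89, adjusted p = 0.0198, and 0.89 rescaled, adjusted p = 9.04e-06). HEI10 was higher in ire1a-4 ire1b-2 than in bzip60-2 (1.88, adjusted p = 1.89e-07, and 1.75 rescaled, adjusted p = 1.68e-08), as were MRD1 (1.54, adjusted p = 1.08e-06), AT2G27140 (1.43, adjusted p = 9.14e-05), AT4G09950 (1.56, adjusted p = 0.00207), AT5G20970 (1.1, adjusted p = 0.00386) and BGLU33 (0.83, adjusted p = 0.0198). SHL1 was lower (-0.99, adjusted p = 0.00269, and -0.97 rescaled, adjusted p = 7.54e-13), as was AT1G33950 (-0.78, adjusted p = 0.0173). AT2G34590 (-0.08 and -0.07 rescaled), AT4G29200 (-0.02 and -0.01), AT3G01345 (-0.09 and -0.06) and ARP9 (-0.07 and -0.06) gave no call between these mutants, all with adjusted p = 1. Without bzip60-2 library 4 the deposited count was 10 in place of 16.

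The comparison of the genotypes was repeated on the ground, where both groups are separate libraries from those in flight. AT2G01021 took 75.3 to 83.9% of all FPKM in the mutant and 73.7 to 84.7% in WT there, more than in flight. As deposited 26 genes were called (0.136% of the tested genes), with 11 higher (0.0573%) and 15 lower (0.0782%), and all 26 were also among the 93 called after rescaling (0.485%), with 36 higher (0.188%) and 57 lower (0.297%). Of the 32 flight genes 19 were called on both scales on the ground in the same direction, which is 59.4% of the flight genes and 73.1% of the ground genes. In all, 28 of the 32 had the same sign on the ground on both scales, and 52.2% of all tested genes did after rescaling. IRE1A had 0.500 to 1.37 FPKM in the mutant and 26.1 to 34 FPKM in WT on the ground, and AT2G34590 had 33.7 to 65.3 FPKM in the mutant and 15 to 19.9 FPKM in WT. SHL1 had 12.4 to 20.9 FPKM in the mutant and 34.9 to 42.3 FPKM in WT, and AT2G27140 had 3.46 to 5.38 FPKM in the mutant and 0.354 to 0.715 FPKM in WT. These 4 genes separated the genotypes without overlap in both places. On the ground the values did not overlap for 0.532% (higher) and 0.657% (lower) of the tested genes as deposited, and for 1.56% and 1.45% rescaled.

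A second set of flight genes was scarcely expressed or not called on the ground. AT1G33950 was listed at 0 in all 4 ground libraries of the mutant and at 0 to 0.102 FPKM in WT, AIG1 at 0 to 0.0338 FPKM in the mutant and at 0 in WT, and CYP79F1 at 0 in the mutant and 0 to 0.0248 FPKM in WT. ICS1 had 0.927 to 1.64 FPKM in the mutant and 0.809 to 1.32 FPKM in WT on the ground, and AT1G43910 had 1.76 to 3.13 FPKM in the mutant and 1.18 to 3.36 FPKM in WT. BGLU33 had 0.0199 to 0.236 FPKM in the mutant and 0 to 0.0752 FPKM in WT. The test of the flight difference minus the ground difference called 1 gene on each scale (0.00521%), AT1G33950 (-1.55, adjusted p = 4.09e-04, and -1.41 rescaled, adjusted p = 0.00105). With this gene at or near 0 in both genotypes on the ground, its ground difference is near 0 by construction and the value repeats its flight difference. The count was 0 on both scales with a pseudocount of 0.1. Without ire1a-4 ire1b-2 flight library 3 this count was 2 as deposited and 3 rescaled, and it was also 2 as deposited without WT flight library 3 and 2 rescaled without ire1a-4 ire1b-2 ground library 2 or 4 or WT ground library 3. At an unadjusted p below 0.05 this test gave 272 genes as deposited (1.42% of the tested genes) and 1100 rescaled (5.73%). ICS1, which was expressed in both places, did not pass (-1.48, adjusted p = 1, and -1.5 rescaled, adjusted p = 0.399).

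**Figure D4:**
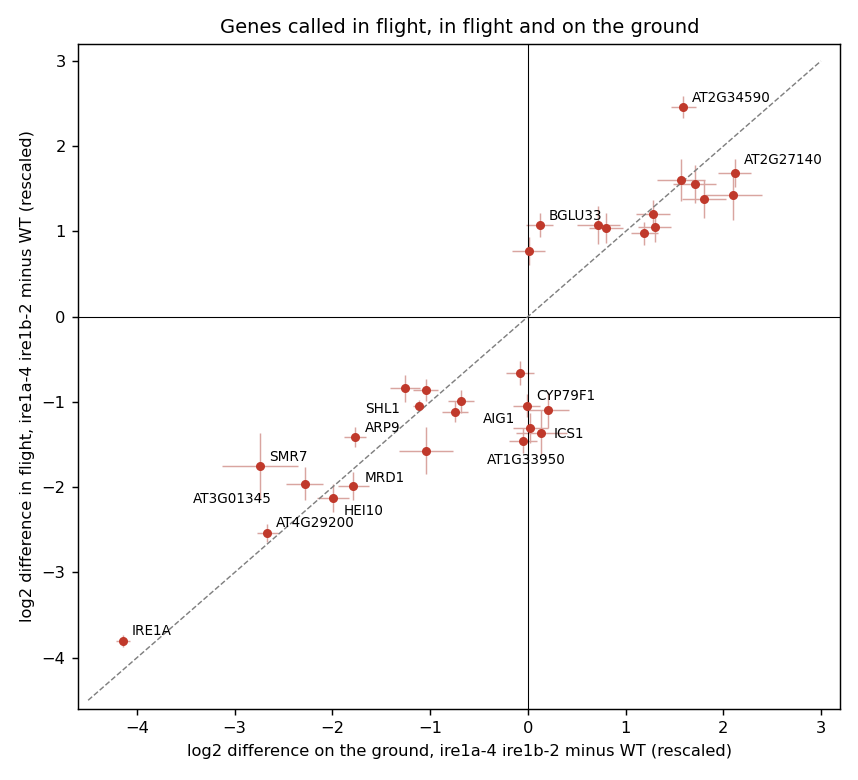
Difference between ire1a-4 ire1b-2 and WT in flight (vertical) and on the ground (horizontal) for the 32 genes called on both scales in flight, on the log2(FPKM + 1) scale after rescaling, with bars of 1 SE and the dashed line at equality. Most genes lie near the line, and AT1G33950, AIG1, CYP79F1, ICS1 and BGLU33 lie near 0 on the horizontal axis.

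Genes of the hypoxia response had negative differences throughout the list and no called member. All 13 tested genes of 14 had a negative difference, with a median of -0.47 and -0.44 rescaled, beside -0.01 and 0.01 for all tested genes, of which 54.3% were negative as deposited and 48.1% rescaled. At an unadjusted p below 0.05 there were 5 lower as deposited and 7 after rescaling, beside 0.928% and 2.02% of all tested genes. PCO2, a cysteine oxidase that marks factors for decay when oxygen is present, came nearest, with 49.8, 40.8, 46.4 and 32.7 FPKM in the mutant, against 50.6, 66.5, 62.7 and 68.2 FPKM in WT (-0.54 ± 0.20, adjusted p = 1, and -0.52 ± 0.12 rescaled, adjusted p = 0.0668). The hemoglobin HB1 had 218, 189, 260 and 124 FPKM in the mutant, against 216, 400, 398 and 376 FPKM in WT (-0.82 ± 0.34, adjusted p = 1, and -0.80 ± 0.30 rescaled, adjusted p = 0.951). ADH1, the alcohol dehydrogenase of fermentation, had 67.6, 54.2, 88.2 and 38 FPKM in the mutant, against 59.9, 116, 109 and 114 FPKM in WT (-0.69 ± 0.27, adjusted p = 1, and -0.67 ± 0.24 rescaled, adjusted p = 0.943). In WT library 1 both HB1 and ADH1 lay at the level of the mutant, and the other 3 WT libraries lay above every mutant library. On the ground the median of the list was -0.13 and -0.06 rescaled.

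Nuclear genes of photosynthesis also had mostly negative differences, 19 of 20 tested as deposited and 18 after rescaling, with a median of -0.24 and -0.22 and none called. For these and the lists below, 54.3% of all tested genes were negative as deposited and 48.1% rescaled. The genes of a list are read in the same 8 libraries, so their signs are not independent observations. LHCB1.2 (-0.87, adjusted p = 0.0604, and -0.79 rescaled, adjusted p = 0.242) and LHCB1.3 (-0.90, adjusted p = 0.879, and -0.88 rescaled, adjusted p = 0.468), light-harvesting proteins whose genes are near-identical copies, were the lowest. On the ground the median of this list was 0.17 and 0.24 rescaled, the opposite sign. Of the auxin transport and perception genes 13 of 14 had positive differences (median 0.07 and 0.09 rescaled), and of the 16 auxin response genes 11 as deposited and 12 after rescaling (0.08 and 0.09), with none called in either list. The lists for jasmonate (10 tested), heat shock (15), oxidative stress (11), sugar starvation (7) and wall loosening (15) had medians between -0.02 and 0.10 and no called member.

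**Figure D5:**
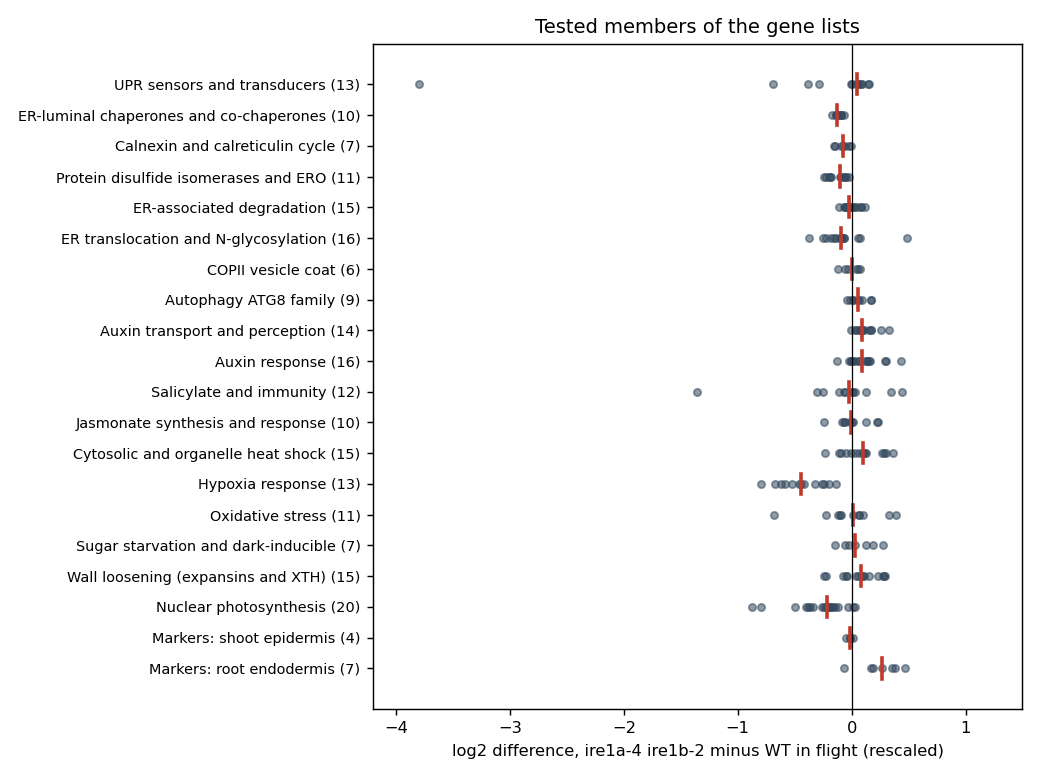
Differences between ire1a-4 ire1b-2 and WT in flight for the tested members of each gene list (number tested in brackets), on the log2(FPKM + 1) scale after rescaling; each point is a gene and the red line the median. IRE1A at -3.80 and ICS1 at -1.36 stand far left of their lists, and all 13 hypoxia genes lie below 0.

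Because PARP2, SMR7, TK1A and CYCB1;1 were among the called genes, a list of 19 genes of the DNA damage response was added after the values were seen, and it is given without a test. Of the 15 tested 3 fell as deposited (PARP2, SMR7 and CYCB1;1) and 3 after rescaling (PARP2, SMR7 and TK1A), with a median of -0.28 and -0.26 rescaled and 13 of 15 negative. SOG1, the master regulator of this response, had 13.8, 15.2, 12.6 and 13.2 FPKM in the mutant, against 13, 14.7, 10.8 and 12.8 FPKM in WT (0.09 ± 0.16 and 0.11 ± 0.09 rescaled, both adjusted p = 1). On the ground 3 of the 15 fell as deposited and 5 after rescaling, with medians of -0.40 and -0.45, beside 0.0782% and 0.297% of all tested genes called lower there and medians of -0.05 and 0.01. The list was built around genes already called, so nothing is read from these counts. Averages in the other flight mutants were also under WT for PARP2, at 2.15 FPKM in bzip28-2, 2.78 FPKM in bzip60-2 and 2.89 FPKM in bzip28-2 bzip60-1, beside 2.29 FPKM in ire1a-4 ire1b-2 and 6.05 FPKM in WT.

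Markers of tissues were read to check what the seedlings held. The summed FPKM of 4 shoot epidermis genes was 517 to 609 in ire1a-4 ire1b-2 and 498 to 794 in WT, and that of 8 root endodermis genes was 219 to 300 in the mutant and 159 to 281 in WT. No tested marker gene was called, and 6 of the 7 tested endodermis genes had positive differences (median 0.25 and 0.27 rescaled). Of all tested genes 54.3% had a negative difference as deposited and 48.1% rescaled. All 4 shoot epidermis genes were tested, but only 2 of 5 root tip and stele genes and 2 of 4 root hair genes. None of the 11 seed storage genes passed the filter for testing. Root tip and stele genes summed to 42.8 to 53.7 FPKM in the mutant and 35.2 to 56.7 FPKM in WT, and root hair genes to 3.26 to 6.14 FPKM in the mutant and 3.71 to 6.36 FPKM in WT. Seed storage genes, 11 in all, summed to 0.202 to 1.27 FPKM in the mutant, with 3 at 0 in all its libraries, and to 0.754 to 1.16 FPKM in WT, with 2 at 0. The sample titles carry lane numbers, and these differed between genotypes: the mutant had 1 library in lane 1, 2 in lane 4 and 1 in lane 2, and WT had 3 in lane 1 and 1 in lane 4. All 32 called genes kept their direction in lane 1 and in lane 4 taken alone, where there are too few libraries for a test. Their mutant and WT values do not overlap, so this was fixed in advance and is no check on lane.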

How the data were processed

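Stranded mRNA libraries of whole dark-grown seedlings were deposited by the authors as 1 table of FPKM for 34133 loci, with 40 columns. Of the 44 labelled samples 4 have no column and were not analysed here. The submitters' processing notes name FastQC 0.11.5, cutadapt 1.8.1, Bowtie2 2.2.4, TopHat2 2.0.14, Cufflinks 1.3.0 and the build TAIR10. The strand setting and the counting of multiply mapped reads are not given in the sources used here. FPKM as deposited by the authors carries no read counts: steps of whole reads were looked for among low values and not found, so the depth is unknown and no counting error can be given.

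Values were analysed as deposited and with libraries put on a common scale by the median of ratios of 14104 genes that exceed 1 FPKM in every library. The 19186 genes with a mean of at least 1 FPKM over the 40 libraries were tested on log2(FPKM + 1) with a linear model in limma 3.58.1 (R 4.3.3), its variances moderated with a trend. The fit held 1 mean for each of 10 groups with 30 residual degrees of freedom, so the spread was shared among groups, and p-values were adjusted by the Benjamini-Hochberg method over all tested genes, with a threshold of 0.05. Contrasts were ire1a-4 ire1b-2 minus WT in flight, the same on the ground, the difference between these, and ire1a-4 ire1b-2 minus bzip60-2 in flight. The ground contrast was added to the planned tests as part of their difference. The fit was tested on simulated data.

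Genes were named by a rule: IRE1A, IRE1B, bZIP60 and bZIP28, the 10 largest differences in each direction among genes called on both scales with at least 5 FPKM in 1 of the groups and no overlap, all sensors, and up to 4 called members of every other list. The other genes called on 1 or both scales and the DNA damage list were chosen after their values were seen. The comparison, the other 23 lists and the tests were chosen with earlier results of these data known. Gene names, coordinates and sequences come from the RefSeq annotation of TAIR10.1, to which 31510 loci matched by locus name. Figures were drawn with matplotlib 3.10.9. Alternatives changed the pseudocount, the filter, the scaling, the libraries in the fit, lane and the replicate block. A result for 1 gene is not reported here.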

Additional observations from a re-analysis of the deposited data

Results flagged for a closer look

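In 114 groups of 4 libraries, for the genes named above, the gap of the highest or lowest library to its nearest neighbour was set against the range of the group, and compared with the 95% critical value of Dixon's test. Chance alone gives about 1 such library in 20 groups, and 7 were found here. In ire1a-4 ire1b-2 flight seedlings, library 1 was the highest for ARP9 (0.84 of the range) and for NAC001 (0.904), and library 3 was the lowest for AT2G34590 (0.861). In WT flight seedlings, library 2 was the highest for IRE1B (0.958) and for AT3G45730 (0.86), library 1 was the lowest for bHLH093 (0.831), and library 3 was the lowest for AGB1 (0.901). Library 3 of WT also had the largest share of AT2G01021, at 47.2% of all FPKM. The calls of ARP9, AT2G34590 and NAC001 and the rescaled call of IRE1B were kept without any 1 library, and those of AT3G45730 and bHLH093 were not.

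AT1G33950 was called by the test of the flight difference minus the ground difference, at -1.55 as deposited. It had 1.07 to 1.52 FPKM in ire1a-4 ire1b-2 and 5.05 to 6.65 FPKM in WT among flight seedlings. On the ground it was listed at 0 in ire1a-4 ire1b-2 and at 0 to 0.102 FPKM in WT. Its ground difference is therefore near 0 by construction, and the value repeats the flight difference. No gene was called by this test with a pseudocount of 0.1, among genes with a mean of at least 5 FPKM, or with the replicate block.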

How the results depend on the processing

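None of the 32 genes called on both scales between ire1a-4 ire1b-2 and WT in flight changed its sign under the alternatives tried. Most alternatives could not have changed it, because the 4 mutant and 4 WT values of these genes do not overlap. The counts of called genes depended on the settings, and the cause was not tested. As deposited, the 13 higher and 20 lower genes became 7 and 11 with a pseudocount of 0.1, 22 and 38 with no filter on low values, and 3 and 7 among genes with a mean of at least 5 FPKM, where fewer genes are tested. After rescaling, the 16 higher and 29 lower genes became 7 and 16 with that filter, and with no filter 25 were higher. With only the groups compared in the fit, 6 were higher as deposited and 7 rescaled, and with only the 20 flight libraries 29 were higher rescaled. Leaving out 1 library gave 10 to 14 higher and 16 to 21 lower as deposited, and 12 to 16 and 19 to 28 rescaled. Without WT flight library 3 and ire1a-4 ire1b-2 flight library 4, which have the largest AT2G01021 share and were chosen after seeing the data, 18 were lower rescaled.

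The difference between flight and ground, 1 gene on each scale, became 0 on both with a pseudocount of 0.1 or the filter at 5 FPKM, 7 and 4 with no filter, and 2 rescaled with only the groups compared; leaving out 1 library gave 1 to 2 as deposited and 1 to 3 rescaled. Against bzip60-2, the 16 genes as deposited became 9 with a pseudocount of 0.1, 29 with no filter and 5 with the filter at 5 FPKM, and 10 to 16 without 1 library. The 19 rescaled became 7 with the filter at 5 FPKM, 12 with only the groups compared, and 15 to 18 without 1 library.

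Same-numbered libraries of both genotypes did not deviate together (correlations of -0.075 to 0.095 as deposited and -0.075 to 0.091 rescaled), so the numbers are not taken to pair them, and not every library correlated best with its own number. In flight the sample titles of both genotypes carry the letters A to D in the order of these numbers. On the ground the letters of number 3 differ between the genotypes, so the block there joins unlike letters. A fit with the replicate block gave 2 higher and 8 lower genes as deposited and 1 and 6 rescaled, 0 genes for flight against ground on both scales, and 6 and 3 against bzip60-2.

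Of the 32 genes, 18 kept the deposited call and 26 the rescaled call with a pseudocount of 0.1. As deposited this setting gave an adjusted p in limma's test of 0.887 for BGLU33, 0.0734 for AIG1, 0.131 for CYP79F1, 0.235 for AT1G43910, 0.266 for AT2G01580, 0.103 for AT2G18193, 0.0571 for AT4G09950, 0.0694 for AT5G60250 and 0.128 for RTM1; rescaled it gave 0.357 for BGLU33, 0.137 for ICS1, 0.0933 for SMR7, 0.212 for c-NAD-MDH3, 0.485 for AT3G20450 and 0.157 for AT2G26630.1. With only the groups compared in the fit 21 and 22 kept the call; beside those named above, BGLU33 (adjusted p = 0.0675) and AT5G18840 (0.112) lost it as deposited and c-NAD-MDH3 (0.0602) rescaled. With lane as a covariate 29 and 29 kept it, and SMR7, AT2G01580 and AT3G20450 did not. With the replicate block 8 kept it as deposited, namely IRE1A, AT4G29200, AT3G01345, HEI10, AT1G33950, ARP9, SHL1 and AT2G34590, and 7 rescaled, the same without AT1G33950.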
